A study of Mus musculus with 16 samples.

Results

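The replication-dependent histone genes encode the core histones H2A, H2B, H3 and H4 and the linker histone H1 that package new DNA. They were chosen as the protein-coding genes whose symbol in the deposited table starts with Hist1h, Hist2h, Hist3h or Hist4. The table holds 55385 genes, and 8 of them met the rule. All 8 lie on mouse chromosome 13: the H2A genes Hist1h2an, Hist1h2ao and Hist1h2ap, the H2B genes Hist1h2bp, Hist1h2bq and Hist1h2br, and the H4 genes Hist1h4m and Hist1h4n. Most genes of these clusters carry newer symbols in the table, such as H2bc4 for Hist1h2bc. A further 59 protein-coding genes were matched by gene ID to the older Hist symbols of GENCODE M21, after the naming in the table had been seen. They are kept apart from the 8 and called the renamed cluster genes; both together are 67 genes.

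The measurements were RNA sequencing of Iba1-positive retinal cells from Iba1-EGFP mice, whose green reporter follows a gene of microglia and macrophages. The cells had been sorted with FACS, and the labels call them microglia. There were 4 libraries of untreated mice aged 15 weeks (day 0), and 4 each at day 2 (13 weeks), day 4 (13 weeks) and day 7 (16 weeks) after crush of the optic nerve. Age therefore differs with the day, and the part of age cannot be told apart from that of the injury. The library titles carry a 6-digit code whose first 4 digits divide each day into 2 libraries of a first period (replicates 1 and 2) and 2 of a second (replicates 3 and 4). At day 2 the second-period titles also begin with F, where all others have M; no label explains the letter. The labels do not say how many cells or mice stand behind a library, or whether libraries came from separate mice, so p-values measure the spread between these libraries, which may be technical.

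Messages of this family are made in bulk when a cell copies its DNA. Unlike other messages they usually end in a short stem-loop in place of a poly(A) tail, and the stem-loop binding protein, encoded by Slbp, recognises it. The genes lie in clusters, and an H2A gene often stands head to head with an H2B gene. In adult tissue, messages of this kind are used as a sign of cells in S phase, while microglia at rest divide rarely.

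Values were deposited as FPKM, which scales reads by gene length and by library depth. The reads recovered from them ranged from 8647276 to 15708302 per library. The 8 microglia markers were detected in every library, with a summed level of 2340 to 9860 FPKM. The 5 rod markers were also detected in every library, at 1220 to 8550 FPKM summed, although the cells had been sorted for the reporter. In day 0 replicate 1 the rod sum of 8550 FPKM stood above the microglia sum of 2342 FPKM. In day 7 replicate 2 they were 3831 and 3696 FPKM. Day 0 replicate 1 was also highest for the 3 endothelial and 5 erythrocyte markers, at 228 and 418 FPKM summed. The part of other cells in its levels was not tested. A difference between days was tested with limma on log2(FPKM + 1), which understates the change of low genes, with the title period as a covariate. A gene passed at an adjusted p under 0.05 over the 14795 genes that reached 1 FPKM in 4 libraries. A gene below 1 FPKM in every day 0 library could thus be tested only through later days. In these bulk samples, fewer cells of a type and less RNA per cell cannot be told apart.

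The ends of the annotated messages are shown first, because Hist1h2ao and Hist1h2ap, the pair that changed, differ there from the other copies. The 16-base stem-loop is in capitals and the 14 bases before it are in lower case, 5′ to 3′, from GENCODE M21 transcripts (GRCm38), all on chromosome 13.
Hist1h2ao: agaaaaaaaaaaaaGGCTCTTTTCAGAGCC
Hist1h2ap: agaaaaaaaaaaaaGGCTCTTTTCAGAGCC
H2ac8: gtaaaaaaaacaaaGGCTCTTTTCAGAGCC
H2ac11: tgatcgccaacaaaGGCTCTTTTCAGAGCC
Hist1h2bp: actccaaacacaaaGGCTCTTTTCAGAGCC
H2bc8: actcctaacccaaaGGCTCTTTTCAGAGCC
Hist1h4m: ctttctcaactaaaGGCCCTTTTCAGGGCC
Hist1h4n: ctttctcaactaaaGGCCCTTTTCAGGGCC
A stem-loop was searched as 6 bases, the loop TTTC and the reverse complement of the 6 bases, on the transcript strand, and 3 forms were found in 35 of the 67 genes. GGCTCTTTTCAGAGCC was in a transcript of 26 of the 67 genes and of 29 of all 55450 annotated genes. The form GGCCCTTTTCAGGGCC was in 7 genes and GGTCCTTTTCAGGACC in 2, all of them H4 genes of the family. Any perfect stem of this kind occurs in 0.61% of all annotated genes. Hist1h2ao and Hist1h2ap have a run of 12 A directly before the stem-loop. H2ac8 has a run of 8 A near it, with caaa between the run and the stem-loop. Elsewhere in their transcripts, H2ac6 and H2bc6 hold runs of 15 and 11 A. A run of 12 A occurs somewhere in a transcript of 7.09% of all annotated genes. The labels do not state how the cDNA was primed, and the part of such a run in the levels was not tested. The annotated transcript of Hist1h2an is 393 bases and holds the coding sequence alone. No stem-loop was found in the annotated transcripts of Hist1h2bq and Hist1h2br, the longest of which are 2015 and 2197 bases.

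The copies are close to identical, and this bears on each value that follows. The 393 coding bases of Hist1h2ao and Hist1h2ap had 0 differences. Those of Hist1h2an differed from Hist1h2ao at 5 positions, counted from 1 at the A of the start codon with the Hist1h2ao base first: G18A, T24C, C150G, G345A and C354G. Of the 431 windows of 50 bases in Hist1h2ao, 403 also occur in Hist1h2ap, and 6.5% occur in no other annotated gene. The same share was 6.93% for Hist1h2ap, 14.2% for Hist1h2an, 55.9% for Hist1h2bp, 2.68% for Hist1h2bq, 11.3% for Hist1h2br, 10.2% for Hist1h4m and 14.4% for Hist1h4n. Of the 120 values above 0 that the 8 genes have in the 16 libraries, 5 were whole numbers of reads, within 0.001 of a read, and the others were fractions of a read. The Hist1h2ap level was between 0.977 and 1.01 times the Hist1h2ao level in every library. Both are therefore reported as a pair, and not as independent measurements.

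**Figure D1:**
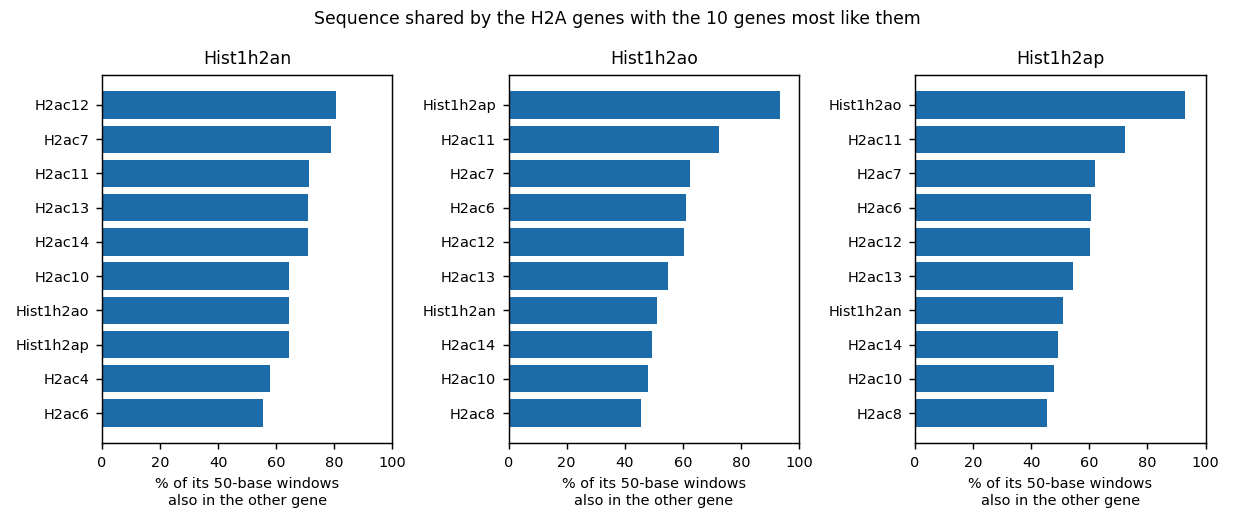
Share of the 50-base windows of Hist1h2an, Hist1h2ao and Hist1h2ap (x axis, %) that also occur in each of the 10 genes most like it (y axis). Bars of Hist1h2ao and Hist1h2ap for each other stand at 93.5% and 93.1%, and H2ac11 follows at 72.6% and 72.3%.

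Hist1h2ao and Hist1h2ap rose at day 2 and at day 4 and were the members of the 8 that passed in any comparison. Hist1h2ao (chr13:21810465-21810944, plus strand, GRCm38) encodes a canonical H2A. At day 0 its level was 3.25, 1.66, 1.47 and 3.17 FPKM in the 4 libraries. At day 2 it was 75.4, 48.7, 101 and 73.5 FPKM, each above every day 0 library. At day 4 the libraries held 75.2, 57.05, 22.1 and 18.2 FPKM, again all above day 0, as for 12.6% of all tested genes, with the first period higher than the second. At day 7 the values were 7.59, 2.67, 26.1 and 66.3 FPKM: replicate 2 lay within the day 0 range and replicate 4 within the day 2 range. The mean rose from 2.39 ± 0.954 FPKM (SD, n = 4) at day 0 to 74.6 ± 21.3 at day 2, a ratio of 31.2. The day 4 mean was 43.1 ± 27.6 FPKM and the day 7 mean 25.7 ± 28.9 FPKM.

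**Figure D2:**
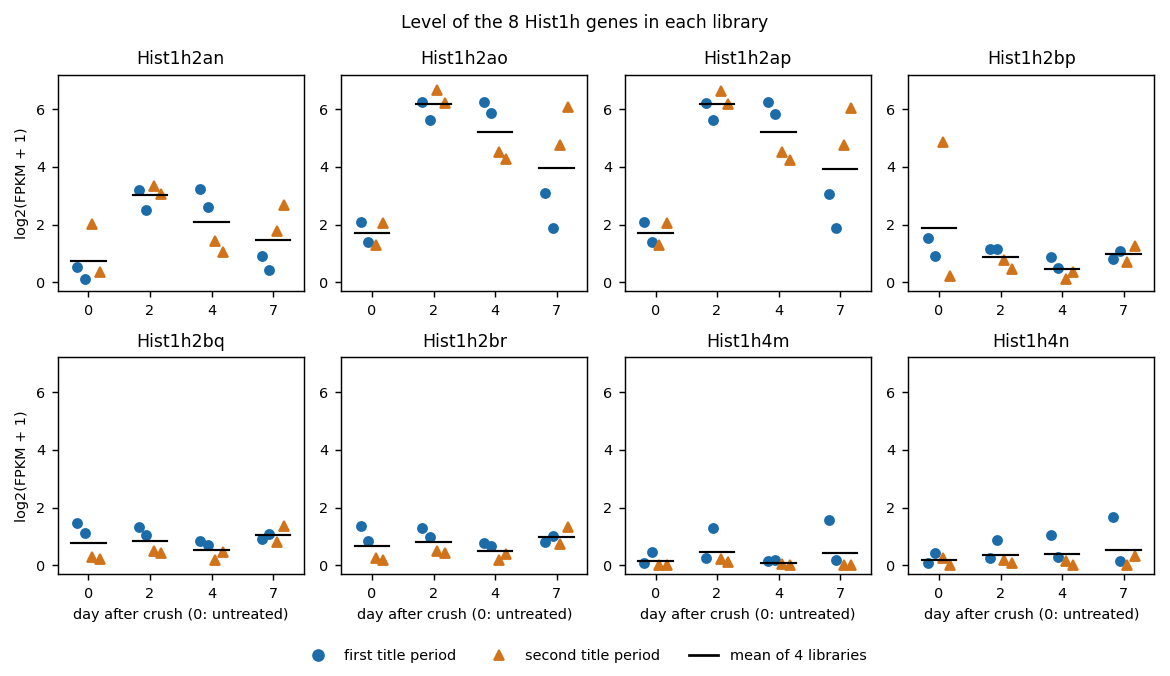
Level of each of the 8 genes as log2(FPKM + 1) (y axis) by day (x axis, day 0 untreated), 1 point a library, circles for the first and triangles for the second title period, lines for the mean of 4. The 3 H2A panels stand higher at day 2 than at day 0 without overlap, and the H2B and H4 panels stay low apart from single libraries.

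On the log2(FPKM + 1) scale the Hist1h2ao change was 4.48 at day 2 (SE 0.711, limma, adjusted p = 0.0147) and 3.51 at day 4 (SE 0.711, adjusted p = 0.0114). The day 7 change of 2.24 (SE 0.711) did not pass (adjusted p = 0.229). Hist1h2ap (chr13:21833026-21833507, minus strand) gave 4.45, 3.48 and 2.22, with adjusted p-values of 0.0148, 0.0119 and 0.232. So 2 of the 5 members that could be tested rose at day 2, where 0.25% of all tested genes did, and 2 rose at day 4, where 4.62% did. At day 7 against day 0 none of the 5 rose (limma, with 2 at an unadjusted p under 0.05), where 0.27% of all tested genes did. The median change of all tested genes was 0.04 at day 2, 0.16 at day 4 and -0.07 at day 7.

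Within the first title period alone the change of Hist1h2ao was 4.19 at day 2, 4.31 at day 4 and 0.74 at day 7. Within the second it was 4.76, 2.72 and 3.73. The day 2 level was thus alike in both periods, while the days 4 and 7 changed places. The difference between periods at day 7 had an unadjusted p of 0.00322 and an adjusted p of 0.265 over all genes (limma interaction), so it did not pass. The day 2 call of the pair was lost on leaving out day 0 replicate 2 or day 2 replicates 1, 3 or 4, each of which left 0 members called. The day 4 call was lost without day 4 replicate 2. Over 27 alternatives the change of Hist1h2ao stayed between 3.42 and 5.77 at day 2 and passed in 19. At day 4 it stayed between 2.08 and 4.31 and passed in 24.

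Levels of other retinal cell markers differed between the days too. The 6 bipolar cell markers summed to 35.3 to 247 FPKM at day 0, 11.1 to 68.7 at day 2, 0.213 to 15.9 at day 4 and 46.2 to 251 at day 7. Of these 6, 2 fell at day 4 against day 0, where 0.716% of all tested genes fell, and up to 5 were listed at 0 in a single day 4 library. The 5 Müller glia and astrocyte markers summed to 120 to 886, 61.6 to 92.1, 31.7 to 64.5 and 86.8 to 345 FPKM on days 0, 2, 4 and 7, and 1 of them fell at day 4. At day 2, 0 of the 6 bipolar and 0 of the 5 Müller and astrocyte markers passed (limma), and no rod or ganglion cell marker passed in any comparison. The median changes of the bipolar and Müller lists were still -2.16 and -1.26 at day 2, against 0.04 for all tested genes. At day 4 they were -1.98 and -2.05, so the lack of calls at day 2 does not show equal levels. With the mean of the bipolar and Müller lists as a covariate, the Hist1h2ao change was 3.42 at day 2 (SE 0.948, adjusted p = 0.413) and 2.08 at day 4 (SE 1.13, adjusted p = 0.491), so 0 of the 8 members passed. In that fit 0 of the 14795 genes passed at day 2 and 5 at day 4. The part of these cells in the result was not tested further. The monocyte list has 3 genes, of which 1, Plac8, reached the level for testing. Its changes of 1.37 at day 2 and 1.36 at day 4 did not pass. That of 3.14 at day 7 did, where 0.27% of all tested genes rose. The part of monocytes in the levels of the pair was not tested.

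Hist1h2an (chr13:21786826-21787218, minus strand) is the third H2A member and less abundant than the pair. Its level was 0.435, 0.0801, 3.06 and 0.296 FPKM at day 0 and 8.20, 4.70, 9.02 and 7.42 FPKM at day 2. At day 4 it was 8.41, 5.14, 1.74 and 1.08 FPKM, and at day 7 it was 0.863, 0.352, 2.47 and 5.40 FPKM. The 4 day 2 libraries lay above all of day 0, as they did for 3.37% of all tested genes, while day 4 and day 7 overlapped with day 0. The change at day 2 was 2.27 (SE 0.631, adjusted p = 0.186), and the changes of 1.33 at day 4 and 0.70 at day 7 did not pass either (adjusted p = 0.245 and 0.692).

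All 3 H2A members overlap an annotated miRNA gene on the opposite strand, which shares 35.9% of the exon bases of Hist1h2an, 28.8% of Hist1h2ao and 28.6% of Hist1h2ap. Most renamed H2A genes overlap such a gene too, H2ac8, H2ac11, H2ac18, H2ac19 and H2aw among them. An antisense gene also covers 100% of the exon bases of H2ac18 and of H2ac19. H2aw shares 33% of its exon bases with Trim17 on the same strand. The Nextera XT kit keeps no strand information, and reads of such overlapping genes cannot be told apart. The gene opposite Hist1h2ao, Gm19658, was listed at 4.37 ± 2.08 FPKM (SD, n = 4) at day 0, 136 ± 41.7 at day 2, 79.2 ± 48.7 at day 4 and 51.9 ± 63.7 at day 7. It thus ran beside its partner.

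The H2B members stand head to head with the H2A members, and none of them passed in any comparison. Between the annotated starts lie 242 bases for Hist1h2an and Hist1h2bp, 267 for Hist1h2ao and Hist1h2bq, and 235 for Hist1h2ap and Hist1h2br. Hist1h2bq (chr13:21806612-21810197, minus strand) was at 1.75, 1.15, 0.225 and 0.162 FPKM at day 0 and 1.53, 1.08, 0.399 and 0.343 FPKM at day 2. It was at 0.782, 0.617, 0.137 and 0.370 FPKM at day 4, and at 0.870, 1.11, 0.753 and 1.58 FPKM at day 7. Its groups overlapped in every comparison with day 0, with changes of 0.06, -0.23 and 0.27 (SE 0.317 each, adjusted p = 0.978, 0.733 and 0.767). Hist1h2br (chr13:21833743-21837530, plus strand) ranged from 0.124 to 1.6 FPKM and stayed below the level for testing.

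Hist1h2bp (chr13:21787461-21789213, plus strand) was at 1.90, 0.869, 27.9 and 0.164 FPKM at day 0. The single library at 27.9 FPKM sets the day 0 mean of 7.71 ± 13.5 FPKM (SD, n = 4). The means were 0.882 ± 0.4, 0.401 ± 0.331 and 0.982 ± 0.349 FPKM at days 2, 4 and 7. The changes of -0.99, -1.42 and -0.91 (SE 0.735 each) did not pass, with adjusted p-values of 0.723, 0.295 and 0.648.

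The H4 members were near the floor of detection. Hist1h4m (chr13:21811746-21812147, plus strand) was listed at 0 in 5 libraries, and its highest values were 1.96 FPKM in day 7 replicate 1 and 1.47 FPKM in day 2 replicate 2. Hist1h4n (chr13:21831767-21832196, minus strand) was at 0 in 3 libraries and highest in the same day 7 library, at 2.19 FPKM. Over all 16 libraries they held 19.3 and 26.3 reads, so a change was not detectable at this depth.

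The shared start regions are shown next, because the H2A and H2B members of a pair flank the same stretch of DNA. These windows run from 250 bases before to 50 after the RefSeq start (RefSeq, GRCm38.p6), whose starts differ from those of GENCODE, and all 8 members matched an entry. CCAAT and TATAAA, each on either strand, are in capitals. Hist1h2ao is shown as the H2A member that changed and Hist1h4m as an H4 member beside it. The Hist1h2an window, not shown, holds TATAAA, which those of Hist1h2ao and Hist1h2ap do not.
Hist1h2ao, chr13:21810117-21810416, plus strand: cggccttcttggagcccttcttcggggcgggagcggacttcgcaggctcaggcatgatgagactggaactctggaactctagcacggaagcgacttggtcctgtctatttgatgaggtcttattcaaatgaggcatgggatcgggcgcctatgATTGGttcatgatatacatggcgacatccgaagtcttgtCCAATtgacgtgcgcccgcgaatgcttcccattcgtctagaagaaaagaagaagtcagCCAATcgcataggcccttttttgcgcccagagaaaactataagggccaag
Hist1h4m, chr13:21811496-21811795, plus strand: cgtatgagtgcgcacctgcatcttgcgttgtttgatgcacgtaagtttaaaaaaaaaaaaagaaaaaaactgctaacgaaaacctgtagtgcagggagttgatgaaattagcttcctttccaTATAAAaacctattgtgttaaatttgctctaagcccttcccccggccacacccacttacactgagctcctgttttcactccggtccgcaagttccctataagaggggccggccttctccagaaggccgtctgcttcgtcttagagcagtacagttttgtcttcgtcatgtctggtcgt
CCAAT, on either strand, was in the windows of all 18 H2A, 16 H2B, 6 H1 and 10 H3 genes of the 67 that matched, in 3 of 12 H4 genes, and in 37.4% of all 32851 RefSeq windows. The octamer ATTTGCAT was in 7 of 18 H2A and 7 of 16 H2B windows, in 0 of the H1, H3 and H4 windows, and in 1.74% of all. TATAAA, on either strand, was in 61.1% of the H2A and 50% of the H2B windows against 13.6% of all. A box between head-to-head genes, as between Hist1h2an and Hist1h2bp, counted for both. These matches describe letters and not use by a factor.

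The renamed cluster genes widen the view to every class. At day 2, 12 of the 13 H2A genes on chromosome 13 could be tested, members included, and all 12 changes were positive, with a median of 2.29 and a range from 0.79 to 4.48. In 11 of them the 4 day 2 libraries lay above all of day 0, as they did in 3.37% of all tested genes. Most of the renamed genes among the 12 were below 1 FPKM in every day 0 library. They could be tested only through later days, so the filter favoured a positive change without overlap. The 3.37% covers genes of all levels and is not matched for this. The 12 genes share reads with each other and are not separate observations. Of the renamed H2A genes, H2ac8 (the former Hist1h2ae) passed at day 2. It was at 0.693, 0.0754, 0.0592 and 0.0805 FPKM at day 0 and 14.5, 8.60, 6.84 and 4.01 FPKM at day 2. At day 4 it stood at 7.42, 1.94, 2.13 and 0.438 FPKM, and at day 7 at 0.3, 0.0837, 0.777 and 2.44 FPKM. Its day 2 change was 2.86 (SE 0.558, adjusted p = 0.0475), and 56.8% of its windows occur in no other gene. The call passed in 6 of 27 alternatives, whose adjusted p-values ran from 0.0279 to 0.609. H2ac11 (the former Hist1h2ag), which shares more windows with the pair than any other renamed gene, with a mean of 0.413 ± 0.274 FPKM (SD, n = 4) at day 0 and 8.55 ± 2.45 at day 2, had a change of 2.74 that did not pass (adjusted p = 0.116).

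**Figure D3:**
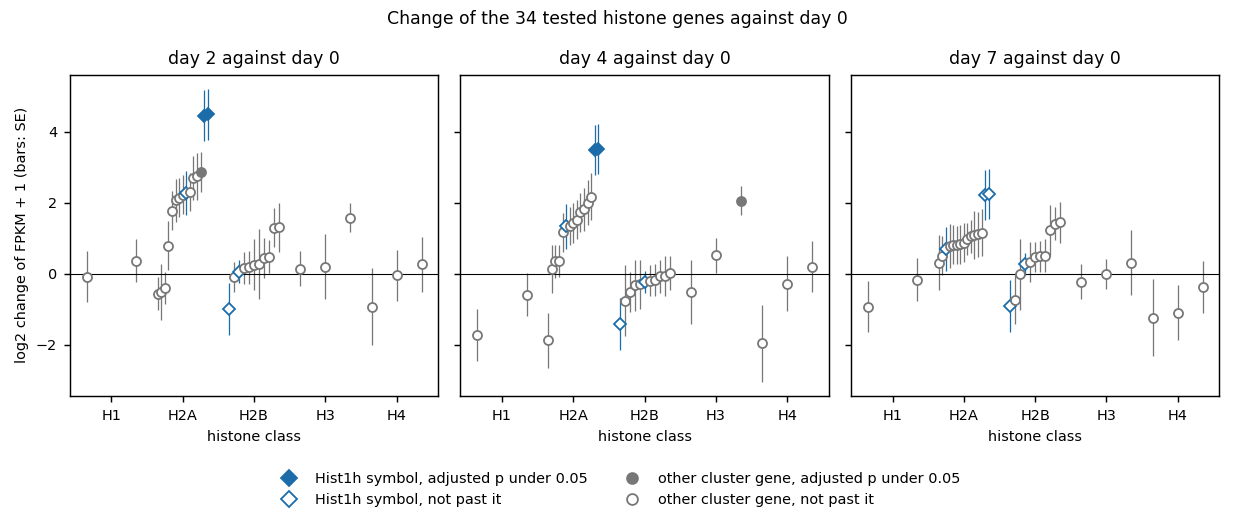
Change against day 0 on the log2(FPKM + 1) scale (y axis, bars are SE) for the 34 tested genes of the 67, by histone class (x axis), 1 panel a day; filled symbols passed at an adjusted p under 0.05. H2A holds the 3 filled symbols at day 2, H2A and H3 those at day 4, and day 7 has none.

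No H2A gene of the other clusters passed in any comparison. H2aw on chromosome 11 was the most abundant of them and was at 64.1, 39.4, 5.34 and 7.29 FPKM at day 0 and 23.8, 24.6, 4.88 and 7.86 FPKM at day 2. Its changes were -0.52, -1.87 and 0.31 at days 2, 4 and 7, none of which passed. The close copies H2ac18 and H2ac19 on chromosome 3 had means of 4.38 ± 2.3 and 6.94 ± 3.86 FPKM (SD, n = 4) at day 0 and 2.99 ± 1.52 and 4.26 ± 2.18 FPKM at day 2, and changes of -0.40 and -0.56. Their difference from the chromosome 13 genes was not tested.

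Among H2B genes, H2bc4 (the former Hist1h2bc) was the most abundant of all 67. Its level was 196, 145, 28.7 and 30.5 FPKM at day 0, 154, 150, 65.2 and 64.6 FPKM at day 2, 120, 56.7, 43.4 and 70.8 FPKM at day 4, and 140, 249, 125 and 296 FPKM at day 7. The first-period libraries of day 0 were thus above those of the second. No stem-loop was found in its annotated transcript. The changes of 0.48, -0.07 and 1.41 did not pass (SE 0.460, adjusted p = 0.805, 0.949 and 0.235). H2bc8 (the former Hist1h2bg), which has the stem-loop, had means of 22.8 ± 18, 25.4 ± 11.2, 17.3 ± 6.48 and 56.1 ± 28.5 FPKM (SD, n = 4) on days 0, 2, 4 and 7, and changes of 0.44, -0.06 and 1.45 (adjusted p = 0.871, 0.963 and 0.320). H2bc4 and H2bc8 together made up 53.5% to 93.8% of the H2B sum in a library. H2bu2 of chromosome 11 ranged from 0 to 27.9 FPKM with no call.

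H3c11 (the former Hist1h3i), a canonical H3 gene, was the 1 gene outside H2A that passed. Of the 9 H3 genes on chromosome 13 it alone could be tested. It reached 1 FPKM at days 2 and 4 only and met the filter through them. A rise from day 0 and a fall to day 7 were thus favoured in advance. H3c11 was listed at 0.0101, 0.0287, 0 and 0 FPKM at day 0. It was at 1.41, 1.43, 4.4 and 1.61 FPKM at day 2, and 1.88, 8.56, 2.96 and 1.90 FPKM at day 4. At day 7 it was at 0, 0, 0 and 0.0272 FPKM, back within the day 0 range. The day 4 change was 2.06 (SE 0.417, adjusted p = 0.0113), and the day 2 change of 1.58 did not pass (adjusted p = 0.164). Against a floor of 3 reads in each day 0 library, the mean was at least 3.44-fold higher at day 2 and at least 5.95-fold higher at day 4. The reads behind these values are few, at most 35.1 in a library, and 12.4% of its windows are its own.

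From day 4 to day 7 H3c11 fell by 2.07 (SE 0.417, adjusted p = 0.0249), where 1.5% of all tested genes fell. The call passed in 17 of 26 alternatives and was lost without day 4 replicate 2, day 7 replicate 2 or day 7 replicate 4. None of the 8 members passed between day 2 and day 4 or between day 4 and day 7 (limma; 0 at an unadjusted p under 0.05), where 0.453% and 1.63% of all tested genes did. The changes of Hist1h2ao were -0.97 and -1.27 there, with adjusted p-values of 0.665 and 0.402.

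Most H3, H4 and H1 genes were near the floor of detection. Of the 12 H3 genes 9 had a mean below 1 FPKM over the 16 libraries, as had 10 of 13 H4 genes, 3 of 6 H1 genes, 7 of 18 H2B genes and 3 of 18 H2A genes. The most abundant linker histone gene, H1f2 (the former Hist1h1c), was at 66.9, 35.01, 19.99 and 7.43 FPKM at day 0 and 24.7, 18.8, 36.7 and 16.9 FPKM at day 2. At day 4 it was at 17.5, 23.1, 6.88 and 0.0408 FPKM, and its change of -1.72 did not pass (adjusted p = 0.183). H1f4 and H1f5 had means of 1.84 and 1.11 FPKM over all libraries, and H1f5 was at 0 in most of them. The H3 genes H3c14 and H3c15 had means of 2.51 and 1.17 FPKM and changed by 0.20 and 0.14 at day 2, without passing. The H4 genes H4c9, H4c4 and H4c3, at means of 5.59, 3.19 and 1.21 FPKM, had no call in any comparison. H4c4 alone ran from 0 to 25.1 FPKM within day 0.

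Summed over classes, the 3 H2A members held 5.76 ± 1.63 FPKM (SD, n = 4) at day 0, 155 ± 43.9 at day 2, 89.8 ± 58.3 at day 4 and 53.3 ± 59.7 at day 7. All 4 libraries of days 2 and 4 lay above day 0, and 3 of 4 at day 7. The 3 H2B members summed to 9.21 ± 12.9, 2.52 ± 1.47, 1.31 ± 0.861 and 3.04 ± 1.08 FPKM. The day 0 mean rests on replicate 3, at 28.3 FPKM: without it the log2 ratio of the H2B sum over the 8 members moved from -1.87 to -0.17 at day 2, from -2.81 to -1.12 at day 4 and from -1.60 to 0.10 at day 7. Sums of the 2 H4 members were 0.254 ± 0.313, 0.786 ± 1.03, 0.422 ± 0.539 and 1.16 ± 2 FPKM.

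Over the 67 genes, the 18 H2A genes summed to 49.3 ± 35 FPKM (SD, n = 4) at day 0, 228 ± 50.1 at day 2, 142 ± 76.4 at day 4 and 119 ± 91.7 at day 7. All 4 day 2 libraries and 2 of 4 at each later day lay above day 0. Hist1h2ao and Hist1h2ap made up 5.74% to 23.9% of this sum at day 0 and 57.1% to 71.3% at day 2. The 18 H2B genes summed to 158 ± 123, 173 ± 87.5, 104 ± 42.9 and 291 ± 113 FPKM, with overlap at every day. The H3 sum was 2.71 ± 2.72, 11.7 ± 8.08, 8.43 ± 7.94 and 4.39 ± 4.93 FPKM. For H4 it was 20.1 ± 21.5, 15.7 ± 8.41, 7.1 ± 9.45 and 8.06 ± 8.69 FPKM, and for H1 it was 38.6 ± 25.4, 27.3 ± 9.61, 12.8 ± 11.2 and 15.8 ± 7.56 FPKM. In summed FPKM, every class apart from H2A at day 2 overlapped with day 0 at every day; for H3, 3 of 4 day 2 libraries lay above it. Weighted by length, as reads, the log2 ratio of the H2A sum to day 0 was 0.91 at day 2 and 0.10 at day 4, against 2.21 and 1.53 for summed FPKM. With that weighting H2A overlapped with day 0 as well, with 2 of 4 day 2 libraries above it.

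**Figure D4:**
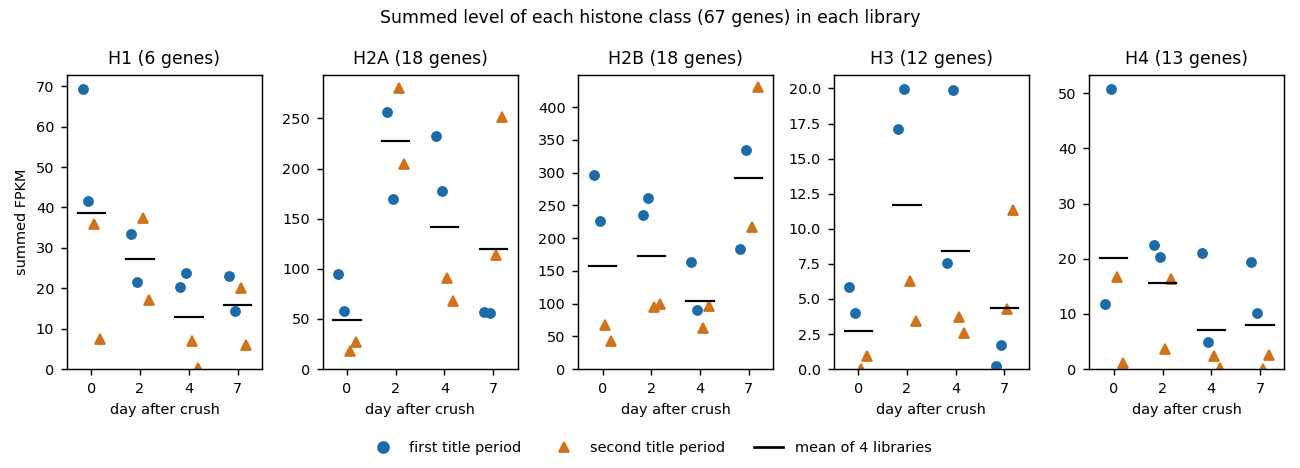
Summed FPKM of each histone class over the 67 genes (y axis, from 0, own scale in each panel) by day (x axis), 1 point a library, circles for the first and triangles for the second title period, lines for the mean of 4. The H2A sum at day 2 stands above all day 0 libraries (169 to 281 against 17.8 to 95.0 FPKM), and the other classes overlap with day 0.

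The genes that process and carry histones were read from lists, named by the rule of calls and mean level unless said otherwise. Of 18 genes for histone message transcription and processing, 15 could be tested. None rose at day 2 (limma), 1 rose at day 4, where 4.62% of all tested genes rose, and none at day 7, and the median changes were 0.30, 0.76 and -0.22. The 1 gene was Ccne1, cyclin E1, which drives entry into S phase, with a mean of 0.594 ± 1.05 FPKM (SD, n = 4) at day 0 and 16.1 ± 3.64 at day 4 and a change of 3.59 (adjusted p = 0.0185). Lsm10, an Sm-like protein of the U7 particle that trims histone messages, was the most abundant and had means of 17.7 ± 6.98 and 20.7 ± 12 FPKM at days 0 and 4. Slbp was chosen for its role after its values were seen. Its means were 8.2 ± 1.33, 12.6 ± 7.54, 25 ± 8.69 and 21.2 ± 15.4 FPKM on days 0, 2, 4 and 7, and its day 4 change of 1.43 did not pass (adjusted p = 0.102). The day 4 call of the list was lost without day 0 replicate 2 or day 4 replicate 2, among other settings.

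Of 23 histone chaperone and deposition genes, 22 could be tested; 1 rose at day 2, 6 at day 4 and 0 at day 7, and 3 fell from day 4 to day 7. Of all tested genes 0.25%, 4.62% and 0.27% rose at these days and 1.5% fell, which is also the background for the lists after it. The median changes were 0.12, 0.47, -0.13 and -0.66 in that order. Npm1, a nucleolar chaperone, rose at day 4 from 117 ± 44.9 to 260 ± 51.8 FPKM (SD, n = 4; change 1.23, adjusted p = 0.0399). Rbbp7, a subunit of several histone-binding complexes, rose by 1.62 (adjusted p = 0.0441), and Hat1, which acetylates new H4, by 2.74 (adjusted p = 0.0448). Set, which binds histones and keeps them from acetylation, fell by 1.77 from day 4 to day 7 (adjusted p = 0.0478), from 67 ± 12.9 to 21.2 ± 12 FPKM. The 1 gene at day 2 was Asf1b, which hands H3 and H4 to the assembly machinery and is named outside the rule. Its means were 4.83 ± 6.42, 73.3 ± 33.1 and 40.7 ± 24.2 FPKM on days 0, 2 and 4, and its changes 4.39 and 3.46 (adjusted p = 0.0483 and 0.0321). The day 2 call was lost in 13 of the 16 fits that left out 1 library, and held without day 0 replicate 4, day 4 replicate 3 or day 7 replicate 3. The count of 6 at day 4 moved by over 1.5 times in 10 of the 16, down to 0 without day 4 replicate 2, and was 0 with median-of-ratios scaling. The count of 3 from day 4 to day 7 became 0 without day 4 replicate 1, day 4 replicate 2 or day 7 replicate 2.

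Variant histones are made outside S phase too and do not belong to these clusters; 2 of 11 tested rose at day 2, 2 at day 4 and 0 at day 7, with medians of 0.58, 0.15 and 0.31. H2az1, which encodes the H2A variant H2A.Z, rose from 125 ± 40 FPKM (SD, n = 4) at day 0 to 407 ± 53.6 at day 2 and 441 ± 160 at day 4, with changes of 1.74 and 1.79 (adjusted p = 0.04 and 0.00742). Cenpa, the H3 variant of the centromere, rose from 0.152 ± 0.279 to 20.6 ± 12.7 and 9.81 ± 5.06 FPKM, with changes of 4.02 and 3.14 (adjusted p = 0.00517 and 0.00579). Cenpa was below 1 FPKM in every day 0 library and met the filter through later days. A rise of Cenpa was thus favoured in advance, and the share over all tested genes is not matched for this. The day 2 count of 2 became 1 in 10 of the 16 fits that left out 1 library, each day 2 library among them.

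The DNA replication list (40 genes, 35 tested) and the mitosis list (30 genes, 29 tested) were set beside the H2A pair. Of the replication genes 1 rose at day 2, 8 at day 4 and 0 at day 7, and 5 fell from day 4 to day 7; the medians were 1.58, 2.41, 0.14 and -1.58. Pcna, the sliding clamp, had means of 23.4 ± 15.1, 62.9 ± 4.18 and 112 ± 48.7 FPKM (SD, n = 4) on days 0, 2 and 4, and rose at day 4 (2.41, adjusted p = 0.0113). Mcm5, a subunit of the replicative helicase, rose at day 4 (5.08, adjusted p = 0.0184) from 0.469 ± 0.906 to 50.9 ± 28.1 FPKM. Mcm6, of the same helicase, fell by 4.01 from day 4 to day 7 (adjusted p = 0.0358), and Pold2, a subunit of DNA polymerase delta, by 4.70 (adjusted p = 0.0192). The 1 gene at day 2, named outside the rule, was Tyms, thymidylate synthase (3.29, adjusted p = 0.0153). The day 2 count became 0 without day 0 replicate 2 or day 2 replicates 1, 3 or 4. The day 4 count was 2 without day 4 replicate 2 and 5 without day 0 replicate 4, and the count that fell from day 4 to day 7 was 0 without day 4 replicates 1, 2 or 4 or day 7 replicate 2.

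Of the mitosis genes 9 rose at day 2, 9 at day 4 and 2 at day 7, and 2 fell from day 4 to day 7, with medians of 3.15, 2.51, 0.98 and -1.15. The mean of the list in log2(FPKM + 1) was only 0.242 to 0.949 in the day 0 libraries. Genes below 1 FPKM in every day 0 library met the filter through later days, which favoured a rise. The shares over all tested genes are not matched for this. Ccnb2, a mitotic cyclin, rose at day 2 and day 4 (6.50 and 4.46, adjusted p = 0.0031 and 0.00713), and so did Birc5, survivin (5.13 and 4.44). Pbk, a mitotic kinase (6.43 and 5.30), and Ube2c, of the anaphase pathway (5.17 and 4.00), rose at both days too. The 2 genes at day 7 were Ccnb2 (4.12, adjusted p = 0.0405) and Birc5 (3.30, adjusted p = 0.0488). That count fell to 0 or 1 in 14 of the 16 fits that left out 1 library, and stayed at 2 without day 4 replicate 3 or day 7 replicate 2. The day 2 count of 9 was 4 or 5 without day 0 replicates 1 or 2 or day 2 replicates 3 or 4.

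With the bipolar and Müller level as covariate, 0 genes of the chaperone, variant, replication and mitosis lists passed at day 2 or day 4. Of all 14795 tested genes, 0 passed at day 2 and 5 at day 4 in that fit, so these counts do not set the lists apart. The median change of the replication list was then 1.87 at day 2 and 2.31 at day 4, against 1.58 and 2.41 without the covariate. That of the mitosis list was 2.78 and 2.41, against 3.15 and 2.51. The median SE of the mitosis genes went from 0.801 to 1.15 at day 2 and to 1.36 at day 4. In the second title period alone, with 2 libraries a day, 0 genes of these lists passed at either day. The count over all tested genes is not given for that period, so the lists cannot be set against it.

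Library by library, the pair and the lists did not rank alike. In log2(FPKM + 1), the mean of the replication list was 1.31 to 1.81 at day 0, 2.18 to 3.41 at day 2, 2.63 to 4.27 at day 4 and 1.32 to 2.16 at day 7. Day 7 replicate 4 had 1.35, within the day 0 range, beside 66.3 FPKM of Hist1h2ao. Day 7 replicate 3 had 2.16 beside 26.1 FPKM, and replicate 1 had 2.09 beside 7.59 FPKM. The mitosis mean of day 7 replicate 4 was 1.51, above the day 0 range of 0.242 to 0.949. Over all day 7 libraries the mitosis mean ran from 1.45 to 2.12. At day 4 the mitosis mean was 4.42 and 3.83 in the first period and 1.67 and 2.03 in the second, in the same order of periods as Hist1h2ao, with 75.2 and 57.05 against 22.1 and 18.2 FPKM. No correlation was computed across these libraries, because they form separate groups by day.

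**Figure D5:**
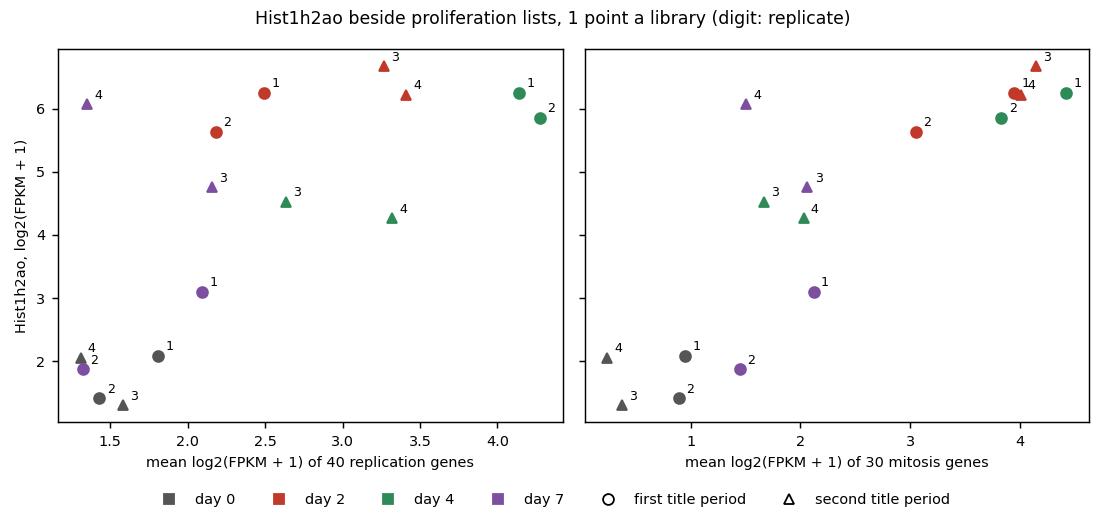
Level of Hist1h2ao as log2(FPKM + 1) (y axis) against the mean log2(FPKM + 1) of the replication list (left, x axis) and of the mitosis list (right), 1 point a library, colour for the day, shape for the title period, digit for the replicate. Day 7 replicate 4 stands apart, with 66.3 FPKM of Hist1h2ao at a replication mean of 1.35 and a mitosis mean of 1.51.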

How the data were processed

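RNA of sorted retinal cells was measured in 16 libraries, 4 a day. Per the labels' protocols, cDNA was made and amplified from lysed cells and prepared with the Nextera XT kit. Per the submitters' processing notes, STAR 2.7.2b and featureCounts 1.6.1 were used with GRCm38.p6 (mm10). The authors deposited FPKM per gene. In every library FPKM times length fell on multiples of a common step, which was taken as 0.01 read to recover reads. Of the values, 46.9% to 63.4% were whole reads (tolerance 0.02 of a step), so no count test was run. All sample columns were used.

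Differences were tested with limma 3.58.1 (R 4.3.3; lmFit, contrasts.fit, eBayes with trend) on log2(FPKM + 1). Genes needed 1 FPKM in 4 libraries. All 16 libraries entered 1 fit, with a mean per day and the title period; p-values were adjusted by Benjamini-Hochberg over 14795 genes. The fit was tested on simulated data. A further limma fit with a day-by-period term gave the changes within periods. Sequences came from GENCODE M21 transcripts and RefSeq promoters; all 67 IDs and lengths matched GENCODE M21. Named histone genes were those called in any comparison and the 3 highest of each class; named genes of other lists were up to 4 called members by mean FPKM, or the most abundant where fewer than 2 were called; H2ac11, H2ac14, Slbp, Asf1b and Tyms were named after their values were seen. Members and lists were chosen with earlier results of these data known. Alternatives changed the pseudocount, filter, scaling, covariates and libraries used.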

Additional observations from a re-analysis of the deposited data

Results flagged for a closer look

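In groups of 4 libraries, 22 values of the named genes and class sums stood apart from the other 3 by Dixon's gap test, of 128 groups looked at; chance alone flags about 1 in 20. Day 0 replicate 3 was highest for Hist1h2an (3.06 FPKM, next 0.435), Hist1h2bp (27.9 FPKM, next 1.90) and H1f5 (15.9 FPKM, the others 0). Day 0 replicate 1 was highest for H2ac8 (0.693 FPKM) and H4c3 (3.58 FPKM), and day 0 replicate 2 for H4c4 (25.1 FPKM). Day 2 replicate 2 was highest for Hist1h4m (1.47 FPKM), Hist1h4n (0.854 FPKM), H3c15 (5.11 FPKM) and the H4 sum of the members (2.32 FPKM), and day 2 replicate 3 for H3c11 (4.4 FPKM). At day 4, replicate 1 was highest for H1f5 (1.61 FPKM) and H4c3 (11.3 FPKM), and replicate 2 for H3c11 (8.56 FPKM). Day 7 replicate 1 was highest for Hist1h4m (1.96 FPKM), Hist1h4n (2.19 FPKM), H1f4 (8.02 FPKM), H4c4 (1.89 FPKM) and the H4 sum of the members (4.15 FPKM). Day 7 replicate 4 was highest for H1f5 (0.137 FPKM), H3c11 (0.0272 FPKM) and H4c3 (1.24 FPKM).

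H2ac14, annotated as a pseudogene and thus outside the 67 genes, was above all day 0 libraries at day 2 (mean 3.92 FPKM) and day 4 (mean 2.45 FPKM), where day 0 reached 0.358 FPKM. It shares 49.4% of the windows of Hist1h2ao.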

How the results depend on the processing

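The 8 members gave 2 calls each at day 2 and day 4. At day 2 this became 0 with no filter on low values, with the bipolar and Müller level as covariate, without both libraries with the prefix F, and in the second title period alone; at day 4 it became 0 with that covariate and in the second period alone. Leaving out 1 library gave 0 to 2 calls at both days and 0 in the other 3 comparisons. Over the 67 genes the 3 calls at day 2 became 8 with the full title code and 0 under the same 4 settings; the 3 at day 4 became 5 with a pseudocount of 0.1, 5 in the first period and 0 with the covariate and in the second period. The 1 call from day 4 to day 7 became 0 with no filter, with a filter of 5 FPKM, with median-of-ratios factors, with the covariate and in either period. Leaving out 1 library gave 0 to 4, 1 to 6 and 0 to 1 calls; without day 7 replicate 4 it was 6 at day 4. The cause was not tested. With a replicate block in place of the title period, the members gave 2 calls at day 2 and 2 at day 4 and the 67 genes 2, 3 and 1 at day 2, at day 4 and from day 4 to day 7. The chaperone list gave 0 at day 2 and 2 at day 4, and the mitosis list 0 at day 7. Of 24 same-number correlations, 5 were over 0.1. Libraries of different numbers were not set beside them, so whether the numbers pair the libraries could not be decided. Median-of-ratios factors moved the median change of all genes by -0.12 at day 2, -0.33 at day 4 and -0.02 at day 7. Each change of a named histone gene was counted once per alternative setting. Of these, 1457 kept their sign and call status, and 107 differed in sign without passing either way. A call was lost in 55 and gained in 3, and no called change turned sign. Hist1h4m and Hist1h4n held too few reads to be tested.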
